A study of Homo sapiens with 8 samples.

Results

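HOX cluster genes encode homeodomain transcription factors that give cells of the embryo their position along the head-to-tail axis. In humans 39 such genes lie in 4 clusters, HOXA to HOXD, and each is numbered by its paralog group, from 1 at the anterior end of the code to 13 at the posterior end. Low-numbered genes pattern the hindbrain and branchial arches, middle ones the neck and trunk, and the highest ones the sacral, tail, limb and urogenital regions. Adult cells often keep part of the code of the place they came from. In cancer cells HOX genes are read both as a trace of origin and as regulators of growth.

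The members were chosen by symbol: HOXA, HOXB, HOXC or HOXD followed by digits only, read by probe sets that the platform annotation assigns to 1 gene. This gave 24 of the 39 genes, out of 22395 genes read in the same way. They were HOXA2, 9 HOXB genes (HOXB1 to HOXB5, HOXB7 to HOXB9 and HOXB13), 6 HOXC genes (HOXC8 to HOXC13) and 8 HOXD genes (HOXD1, HOXD3 and HOXD8 to HOXD13). Each had 1 probe set. HOXB6, HOXC4, HOXC5, HOXC6 and HOXD4 were assigned only with other symbols, and they and 10 HOXA genes are not analysed here, so the HOXA cluster is represented by HOXA2 alone.

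The 8 arrays measured RNA of human cell lines derived from sacral chordomas, tumours of notochord type, named U-CH1 and MUG-Chor1. Each line had 3 control arrays from cells under normal culture conditions and 1 array from cells given recombinant human TNF-α at 10 ng/mL, in 3 additions a week, for 1 week. All arrays came from adherent cells on gelatin in medium with serum, and no genetic change was introduced. The labels do not say that the controls were separate cultures, so every p-value measures only the spread between these arrays, which may be technical, and each line's lone TNF array was assumed to vary as the controls do.

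Array medians were 2.52 to 2.63 (all levels are log2). Controls of one line correlated at 0.959 to 0.981 across the 16986 genes that entered the tests. Of 12 chordoma and notochord markers, 11 or 12 read above the background on every control array. TBXT, the notochord factor that defines chordoma, read 9.14 to 9.75 there. PTPRC, the defining leukocyte marker, stayed at 0.93 to 1.23 on all 8 arrays. Of the 4 leukocyte markers measured, 2 read above the background on MUG-Chor1 control 3, CD14 at 3.03 and LYZ at 3.08. CD14 also did on the U-CH1 TNF array, at 3.45, and no leukocyte marker did on the other arrays.

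HOX proteins bind DNA together with PBX and MEIS partners, and several HOX promoters are themselves bound by such complexes. Promoter sequence was found for 9 of the 24 members (RefSeq, GRCh38.p14). HOXA2 was the one member whose TNF difference passed the test. Its promoter is shown with those of HOXB1 and HOXD11, the other members with a match to TGATNNAT, a PBX and HOX motif. Each line gives the 250 bases before the start, 5′ to 3′ on the gene's strand: chr7:27102684-27102933, minus strand, for HOXA2, chr17:48531012-48531261, minus strand, for HOXB1, and chr2:176107030-176107279, plus strand, for HOXD11. Capitals mark motif matches on either strand.

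HOXA2: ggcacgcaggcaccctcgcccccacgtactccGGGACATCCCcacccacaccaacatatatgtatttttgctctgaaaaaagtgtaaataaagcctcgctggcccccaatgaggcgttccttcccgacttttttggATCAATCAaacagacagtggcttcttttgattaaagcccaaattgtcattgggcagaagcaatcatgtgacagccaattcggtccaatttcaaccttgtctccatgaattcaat
HOXB1: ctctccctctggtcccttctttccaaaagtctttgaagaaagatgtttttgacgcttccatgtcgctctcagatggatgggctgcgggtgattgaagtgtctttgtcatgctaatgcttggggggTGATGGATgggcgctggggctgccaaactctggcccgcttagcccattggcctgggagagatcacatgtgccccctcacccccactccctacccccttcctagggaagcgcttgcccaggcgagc
HOXD11: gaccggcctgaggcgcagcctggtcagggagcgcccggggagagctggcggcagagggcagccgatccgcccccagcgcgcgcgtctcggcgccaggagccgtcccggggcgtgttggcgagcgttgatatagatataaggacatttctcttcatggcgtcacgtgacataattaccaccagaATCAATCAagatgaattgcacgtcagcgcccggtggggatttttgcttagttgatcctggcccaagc

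The first capitals in HOXA2, at bases 33 to 42 of the line, match the NF-kB consensus, and the motif of PBX and HOX lies at bases 137 to 144. In HOXB1 that motif lies at bases 126 to 133 and in HOXD11 at bases 184 to 191. Searched on both strands of 35114 promoters of 300 bases (250 before the start and 50 from it), the NF-kB consensus was present in 11.3% and TGATNNAT in 7.4%. The NF-kB consensus was present in 1 of the 9 members' promoters, that of HOXA2, a share near that of all promoters. The 9 were those of HOXA2, HOXB1, HOXD1, HOXD3, HOXD8 and HOXD10 to HOXD13. None was found for HOXB5, HOXB9 or HOXC13. TATAAA, the TATA box core, was present in 11.5% of all promoters and among the members in that of HOXD13, where a pair of matches overlap. TGANTCA, an AP-1 motif (7.71% of all), and AGGTCA, a nuclear receptor half-site (13.8% of all), had no match in these 9 windows. No other pair of matches overlapped. The 300-base promoter of HOXA2 held 11 CpG and was 46.3% G and C, that of HOXB1 held 11 and was 58.0%, and that of HOXD11 held 27 and was 62.3%, beside a median of 14 CpG over all promoters. These matches describe the sequence and were not tested as sites.

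The control arrays give the axial code of each line. A level was called above the background where it exceeded, on all 3 controls of a line, the 95th percentile of 358 olfactory receptor genes on the same array. These genes are taken as not expressed in such cells, and their 95th percentile was 2.82 to 3.27 on the controls. In each line 10 of the 24 members (41.7%) were above it, beside 48.5% of all genes in U-CH1 and 52.8% in MUG-Chor1. By the same rule 12 of the 358 olfactory receptor genes (3.35%) read above it in each line. The members above the background were HOXA2, most HOXB genes and some HOXC genes, with little from HOXD: 7 of 9 HOXB genes in U-CH1 and 5 in MUG-Chor1, 2 of 6 HOXC genes and 3, and 0 of 8 HOXD genes and 1. By paralog group, 3 of 6 members numbered 1 to 3 were above the background in U-CH1 and 2 in MUG-Chor1, 4 of 6 numbered 4 to 8 in each line, and 3 of 12 numbered 9 to 13 in U-CH1 and 4 in MUG-Chor1.

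HOXA2, which patterns the hindbrain and the hyoid arch, read 6.01, 5.89 and 6.18 on the U-CH1 controls and 7.05, 6.58 and 7.30 on the MUG-Chor1 controls. Every control array of either line lay far above the background on this probe set. Levels of different HOX genes are not ranked against each other, since probes differ in brightness. The same limit applies to every call against the background, which was set by other probe sets.

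Among the HOXB genes, HOXB3, HOXB4, HOXB5, HOXB7 and HOXB9 were above the background in both lines. HOXB3, a hindbrain and neck gene, averaged 4.57 ± 0.228 (SD, n = 3) in U-CH1 and 3.62 ± 0.569 in MUG-Chor1. HOXB4, also known for expanding blood stem cells, averaged 4.34 ± 0.182 and 4.18 ± 0.215. HOXB5, which acts in lung and gut nerve development, averaged 4.49 ± 0.260 and 3.97 ± 0.273. These anterior and cervical genes read as present in both lines, with arrays of the lines overlapping for HOXB4. HOXB7, a trunk gene often raised in cancers, averaged 3.46 ± 0.273 in U-CH1 and 3.95 ± 0.142 in MUG-Chor1. HOXB9, a thoracic gene, averaged 3.79 ± 0.200 and 3.69 ± 0.117. HOXB2, a hindbrain gene, was above the background on all 3 U-CH1 controls and on 1 of 3 in MUG-Chor1. HOXB13, the most posterior HOXB gene and a factor of tail bud and prostate, was above it on all 3 U-CH1 controls and on none in MUG-Chor1. HOXB1, the most anterior HOXB gene, and HOXB8 were above it on no control.

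Of the HOXC genes, HOXC8, a thoracic gene, was above the background in both lines, at 3.96 ± 0.168 (SD, n = 3) in U-CH1 and 3.81 ± 0.134 in MUG-Chor1. HOXC13, the most posterior HOXC gene and a regulator of hair and nail keratins, was above it in both, at 4.71 ± 0.493 and 4.02 ± 0.286. HOXC9, a thoracic gene, averaged 3.28 ± 0.112 in U-CH1, where 2 of 3 controls passed, and 3.93 ± 0.292 in MUG-Chor1, where all 3 did. HOXC12 passed on 2 of 3 controls of each line. HOXC10, a lumbar and hindlimb gene, and HOXC11 passed on none.

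HOXD10, a lumbar and limb gene, was the one HOXD gene above the background on all 3 controls of a line. It averaged 3.32 ± 0.0513 (SD, n = 3) in MUG-Chor1, and in U-CH1 it averaged 3.42 ± 0.302, with 2 of 3 controls above. HOXD8 passed on 2 of 3 U-CH1 controls and on none in MUG-Chor1. HOXD1, HOXD3, HOXD9, HOXD11, HOXD12 and HOXD13 were on no control above it. With HOXB1, HOXB8, HOXC10 and HOXC11 they made 10 members at or under the background in both lines, reading 1.44 to 2.96 on the controls.

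The code depends on where the background is set. With the 99th percentile of the olfactory receptor genes in its place, 3 members were above it in U-CH1 (HOXA2, HOXB3 and HOXB5) and 1 in MUG-Chor1 (HOXA2). With the median of all deposited values, 15 and 11 were. HOXA2 was above it in both lines under each of these settings.

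**Figure D1:**
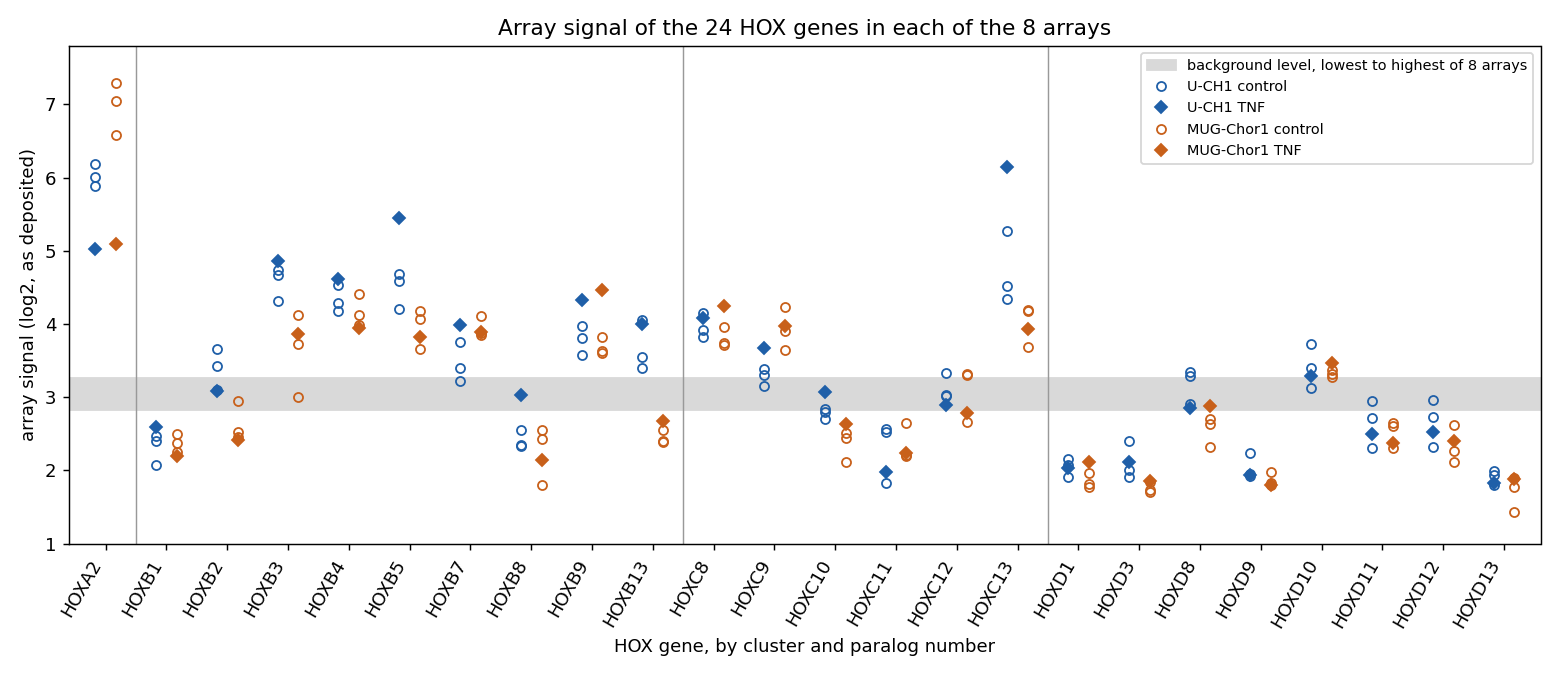
Level (log2) of each of the 24 HOX genes on every array, ordered by cluster and paralog number, with open circles for control arrays, filled diamonds for the TNF arrays, blue for U-CH1, orange for MUG-Chor1 and a grey band for the olfactory receptor background, from the lowest to the highest array. HOXA2 lies at 5.89 to 7.30 on the controls, clear of the band on every array, several HOXB genes and HOXC8 and HOXC13 lie above the background in both lines, and most HOXD genes lie at or below it.

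The control arrays of the lines were then compared gene by gene, with 3 arrays on each side. HOXB13, HOXB3 and HOXB2 were lower in MUG-Chor1 and HOXA2 was higher. These 4 of the 20 members tested passed limma's adjusted p under 0.05, beside 18.9% of all 16986 genes (10.3% higher and 8.57% lower in MUG-Chor1), so the share of members called was near the background. The other 4 members (HOXD1, HOXD3, HOXD9 and HOXD13) never exceeded 2.57, the median of all deposited values, on any array and were not tested. HOXB1 and HOXB8 exceeded it only on the U-CH1 TNF array, at 2.59 and 3.02, and HOXC11 only on MUG-Chor1 control 3, at 2.65. Since such a filter can fix a direction, counts of signs and of arrays out of range within a comparison use all 24 members and all 22395 genes.

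HOXB13 read 3.55, 3.40 and 4.05 on the U-CH1 controls and 2.41, 2.55 and 2.39 on the MUG-Chor1 controls. The groups did not overlap, and no MUG-Chor1 level was above the background. The difference was -1.22 log2 (SE 0.215, 95% interval -1.69 to -0.74; 2.32-fold; limma adjusted p = 0.00302), and it passed under every alternative run. With the background of each MUG-Chor1 array in place of these lower readings, HOXB13 was at least 1.68-fold lower.

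HOXA2 was 1.93-fold higher in MUG-Chor1, by 0.95 log2 (SE 0.224, 95% interval 0.454 to 1.44; limma adjusted p = 0.0139). All 3 MUG-Chor1 controls lay above all 3 U-CH1 controls. Without MUG-Chor1 control 1 the difference was 0.91 with an adjusted p of 0.0557 (limma).

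HOXB3 read 4.31, 4.74 and 4.67 on the U-CH1 controls and 4.12, 3.73 and 3.00 on the MUG-Chor1 controls. The groups did not overlap, and MUG-Chor1 control 3 was the lowest array. The difference was -0.96 (SE 0.279, 95% interval -1.58 to -0.339; 1.94-fold; limma adjusted p = 0.0368). Leaving out any one control other than MUG-Chor1 control 1 ended the call, with limma adjusted p of 0.0579 to 0.11, and without MUG-Chor1 control 3 the difference was -0.65.

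HOXB2 read 3.42, 3.66 and 3.10 on the U-CH1 controls and 2.96, 2.52 and 2.46 on the MUG-Chor1 controls, with no overlap. Its difference was -0.75 (SE 0.223, 95% interval -1.24 to -0.256; 1.68-fold; limma adjusted p = 0.0396). The call was lost without U-CH1 control 1 or 2 or without MUG-Chor1 control 2 or 3, with limma adjusted p of 0.0955 to 0.128.

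The posterior gene HOXB13 and the anterior genes HOXB3 and HOXB2 were thus all lower in MUG-Chor1, and HOXA2, of the same paralog group as HOXB2, was higher. Of the members that did not pass, HOXC9 had a difference of 0.65 (limma adjusted p = 0.0521), HOXD8 of -0.63 (0.0579), HOXC13 of -0.70 (0.0994), HOXB5 of -0.53 (0.129), HOXB7 of 0.49 (0.132) and HOXC10 of -0.43 (0.154). At unadjusted p under 0.05 (limma) there were 10 members, 3 higher in MUG-Chor1 and 7 lower, beside 2821 and 2568 of all 16986 genes. Without U-CH1 control 3, HOXD8 passed as well (limma adjusted p = 0.0433).

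Over the 24 members the difference was positive in 5 and negative in 19, beside 9690 and 12705 of all 22395 genes. The median was -0.16 beside -0.05 over all genes, and the median absolute size 0.272 beside 0.243. All 8 HOXD genes were negative, but HOXD1, HOXD3, HOXD9, HOXD11, HOXD12 and HOXD13 were above the background on no control of either line. The background itself was 2.99 to 3.27 on the U-CH1 controls and 2.82 to 3.08 on the MUG-Chor1 controls. Its part in these signs was not tested. For 11 of the 24 the control arrays of the lines did not overlap, 3 higher in MUG-Chor1 and 8 in U-CH1, beside 30.7% of all genes (14.6% and 16.1%).

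**Figure D2:**
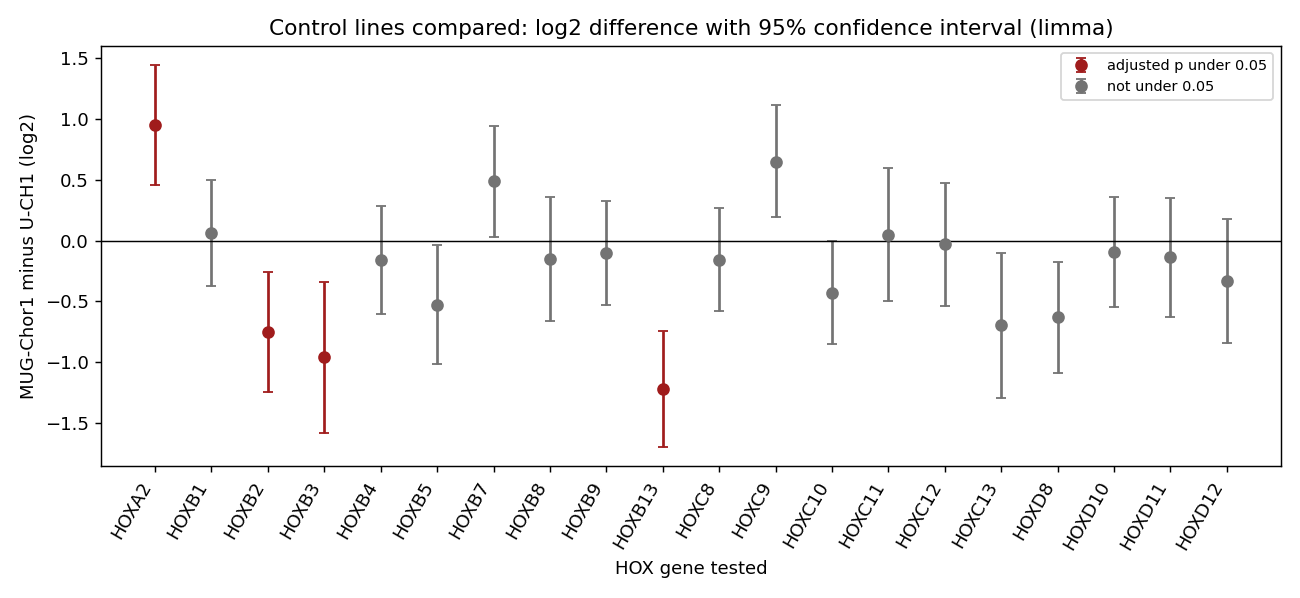
Difference of the control means, MUG-Chor1 minus U-CH1 (log2), for each tested HOX gene, with bars for the 95% interval and red points for limma adjusted p under 0.05. HOXA2 lies at 0.95 and HOXB13, HOXB3 and HOXB2 at -1.22, -0.96 and -0.75, and the intervals of most other members include or come close to 0.

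Each TNF array was then set against the 3 controls of its own line. The comparisons within a line, across lines and of the difference use the same control arrays as each other and as the control comparison, so the values that follow are not independent of one another.

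In U-CH1 no HOX member passed the test, beside 1.27% of all genes (0.913% higher, 0.359% lower). At unadjusted p under 0.05 (limma) there were 3, with HOXC13 and HOXB5 higher and HOXA2 lower. Of all 16986 genes 1187 were higher and 645 lower at that cut.

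HOXC13 read 4.52, 4.35 and 5.27 on the controls and 6.14 with TNF. The TNF array lay above all 3 controls, by 1.43 over their mean (SE 0.378, 95% interval 0.594 to 2.27; 2.70-fold; limma adjusted p = 0.122). Without U-CH1 control 3, the highest control, the difference was 1.71 and passed (limma adjusted p = 0.0468).

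HOXA2 read 5.03 with TNF, under all 3 controls (5.89 to 6.18), a difference of -0.99 (SE 0.316, 95% interval -1.69 to -0.292; 1.99-fold; limma adjusted p = 0.225). HOXB5 read 4.59, 4.69 and 4.20 on the controls and 5.45 with TNF, a difference of 0.96 (SE 0.311, 95% interval 0.270 to 1.65; limma adjusted p = 0.234). Both lay outside their control range, and neither passed over all genes.

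HOXB9 differed by 0.54 (limma adjusted p = 0.524) and HOXB7 by 0.52 (0.587). Of the 24 members 13 had a positive and 11 a negative difference, beside 11454 and 10941 of all 22395 genes. The median was 0.06 over the members beside 0.01 over all genes. By cluster 8 of 9 HOXB genes were positive, with a median of 0.34, 4 of 6 HOXC genes were, and 1 of 8 HOXD genes. The TNF array lay outside the range of the controls for 14 of 24 members, 10 above and 4 below, beside 53.1% of all genes (28.6% above, 24.4% below). The HOXB genes above their controls include HOXB1 and HOXB8, neither of which was above the background on that array.

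In MUG-Chor1 the fall of HOXA2 was the one member called, beside 2.88% of all genes (1.47% higher, 1.41% lower). HOXA2 read 7.05, 6.58 and 7.30 on the controls and 5.09 with TNF. Every control lay well above the TNF array. The fall was 1.88 log2, from a control mean of 6.97 ± 0.365 (SD, n = 3; difference -1.88, SE 0.316, 95% interval -2.58 to -1.18; 3.69-fold; limma adjusted p = 0.00953), and it passed in every alternative run. After TNF, HOXA2 remained above the background of 2.86 on that array.

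Most chordoma markers also read below their controls on the MUG-Chor1 TNF array. VIM, at 8.31, lay within its controls (7.96 to 8.44), and KRT8, at 4.21, lay just below its own (4.24 to 4.98). The 12 markers summed to 81.3 to 84.0 log2 units on the MUG-Chor1 controls, with 12 above the background, and to 58.4 with TNF, with 9 above. TBXT read 7.51 there. The 6 fibroblast markers measured summed to 20.7 to 25.2 on those controls and 30.6 with TNF, with 4 and 6 above the background. Of these, FAP (1.64 to 2.29 on the MUG-Chor1 controls, 5.71 with TNF), DCN (1.46 to 1.58, then 3.11) and LUM (5.99 to 7.54, then 10.7) read above all 3 controls. PDGFRB (3.81 to 4.34, then 3.43) and THY1 (3.99 to 4.93, then 3.80) read below them, and COL1A1 (3.65 to 4.92, then 3.91) within them. On the U-CH1 TNF array the chordoma markers summed to 77.3, beside 81.4 to 86.5 on the U-CH1 controls, TBXT read 8.80 and FAP 1.75. The 3 endothelial markers measured summed to 11.2 to 12.8 on the MUG-Chor1 controls and 9.66 with TNF, with KDR at 6.51 to 7.52 and then 4.71, and to 9.39 to 10.3 on the U-CH1 controls and 9.32 with TNF. The 4 leukocyte markers measured summed to 7.17 to 8.72 on all 8 arrays. The part of these changes in the fall of HOXA2 was not tested, and in such samples fewer cells of a type and less RNA per cell cannot be told apart.

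HOXB9 had the next smallest p in MUG-Chor1. It read 3.82, 3.63 and 3.61 on the controls and 4.46 with TNF, a difference of 0.78 (95% interval 0.173 to 1.38; 1.71-fold; limma adjusted p = 0.224). The TNF array lay above all 3 controls. Among the 24 members 12 had a positive and 12 a negative difference, beside 12129 and 10266 of all 22395 genes. The median was -0.0034 over the members beside 0.03 over all genes. By cluster 3 of 9 HOXB, 3 of 6 HOXC and 6 of 8 HOXD genes were positive. The TNF array lay outside the range of the controls for 13 of 24 members, 8 above and 5 below, beside 56.8% of all genes (32.4% above, 24.4% below).

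**Figure D3:**
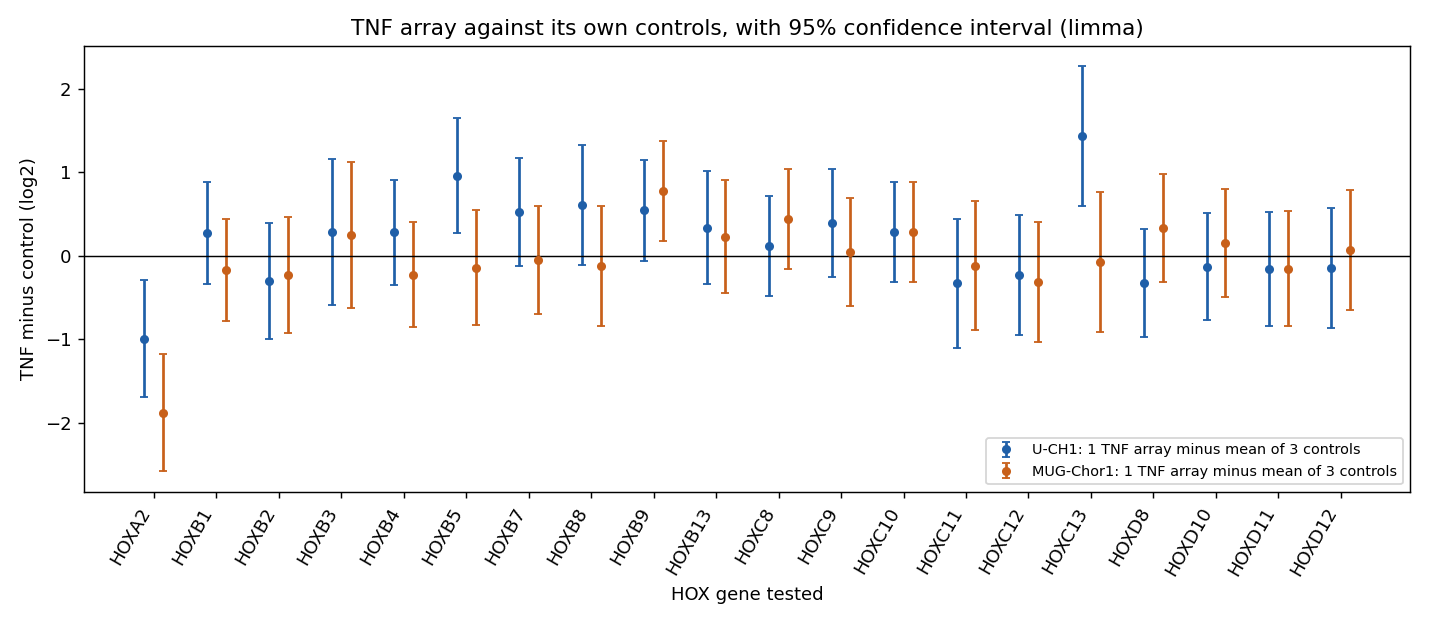
Difference of the TNF array from the mean of the 3 controls (log2) in U-CH1 and in MUG-Chor1 for each tested HOX gene, with the lines in different colours and bars for the 95% interval. HOXA2 lies below 0 in both lines, at -0.99 and -1.88, and HOXC13 at 1.43 in U-CH1.

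With both lines in one additive model, the fall of HOXA2 was again the one call among 20 members, beside 2.48% of all genes (1.55% higher, 0.93% lower). The fall was 1.44 log2 (difference -1.44, SE 0.253, 95% interval -2.00 to -0.88; 2.71-fold; limma adjusted p = 0.0165). It rested on the MUG-Chor1 TNF array: without that array the value was -0.99 with an adjusted p of 0.225 (limma), while without the U-CH1 TNF array it still passed. HOXB9 differed by 0.66 (SE 0.187, 95% interval 0.248 to 1.07; 1.58-fold; limma adjusted p = 0.0997) and lay above its controls in each line. Across the 24 members 17 were positive and 7 negative, beside 12054 and 10341 of all 22395 genes. The median was 0.05 over the members beside 0.03 over all genes. Of the 20 tested, the sign of 3 turned with quantile normalization, and that of 7 without the U-CH1 TNF array.

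The difference between the lines in their response was tested as an interaction of line and TNF. No member passed, beside 0.53% of all genes (0.2% higher, 0.33% lower in MUG-Chor1). At unadjusted p under 0.05 (limma) HOXC13 and HOXB5 were lower in MUG-Chor1 and none was higher. Of all 16986 genes 671 were lower and 580 higher at that cut. For HOXC13, which read 4.17, 3.69 and 4.19 on the MUG-Chor1 controls and 3.94 with TNF, the difference of the effects was -1.51 (SE 0.535, 95% interval -2.69 to -0.323; limma adjusted p = 0.436). For HOXB5, which read 4.18, 3.66 and 4.07 and then 3.82, it was -1.10 (SE 0.440, 95% interval -2.07 to -0.127; limma adjusted p = 0.552). In both genes the MUG-Chor1 TNF array lay within the range of its controls, while the U-CH1 TNF array lay above its own. For HOXA2 the difference of the effects was -0.89 (95% interval -1.88 to 0.100; limma adjusted p = 0.746), so a larger fall in MUG-Chor1 was not shown.

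The signs of the TNF effect were positive in both lines for 7 members (HOXB3, HOXB9, HOXB13, HOXC8, HOXC9, HOXC10 and HOXD3) and negative in both for 6 (HOXA2, HOXB2, HOXC11, HOXC12, HOXD9 and HOXD11). They were positive in U-CH1 and negative in MUG-Chor1 for 6 (HOXB1, HOXB4, HOXB5, HOXB7, HOXB8 and HOXC13) and the reverse for 5 (HOXD1, HOXD8, HOXD10, HOXD12 and HOXD13). Of these, only HOXA2 passed the test, in MUG-Chor1 and across both lines. The same counts of sign pairs over all genes are not given here. Without MUG-Chor1 control 3 the sign in MUG-Chor1 turned for 4 of the 20 tested, and without control 1 of that line for 3.

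None of the other members of the axial code passed the test, and their levels were as follows. HOXB9 read 3.58, 3.81 and 3.98 on the U-CH1 controls and 4.33 with TNF. HOXB3 read 4.86 with TNF in U-CH1, just above its controls, and 3.86 in MUG-Chor1, within them. HOXB4 read 4.62 and 3.95 and HOXB7 3.98 and 3.89, the U-CH1 value above its controls in both genes. HOXC8 read 4.08 with TNF in U-CH1, within its controls, and 4.25 in MUG-Chor1, above them. HOXC9 read 3.67 and 3.98, above the U-CH1 controls and within those of MUG-Chor1. The genes that separated the control lines stayed apart with TNF: HOXB13 read 4.00 in U-CH1 and 2.68 in MUG-Chor1, and HOXB2 3.09 and 2.41. HOXA2, in contrast, read 5.03 and 5.09, closer between the lines than in the controls, a comparison of 1 array each with no test.

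On the U-CH1 TNF array 13 members were above its background of 3.03, the 10 of the controls with HOXC9, HOXC10 and HOXD10. On the MUG-Chor1 TNF array 11 were, the 10 of the controls with HOXD8. These counts ask for a single array and those of the controls for all 3, so a gain with TNF cannot be read from them. HOXC9 and HOXD10 were already above the background on 2 of 3 U-CH1 controls. HOXC10 was above it on no U-CH1 control and HOXD8 on no MUG-Chor1 control. The share of all genes above it on the TNF arrays is not given here. No member that was above the background on all 3 controls of its line fell under it with TNF. HOXC10 on the U-CH1 TNF array, at 3.07, was the highest TNF value among the 10 members at or under the background in both lines.

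**Figure D4:**
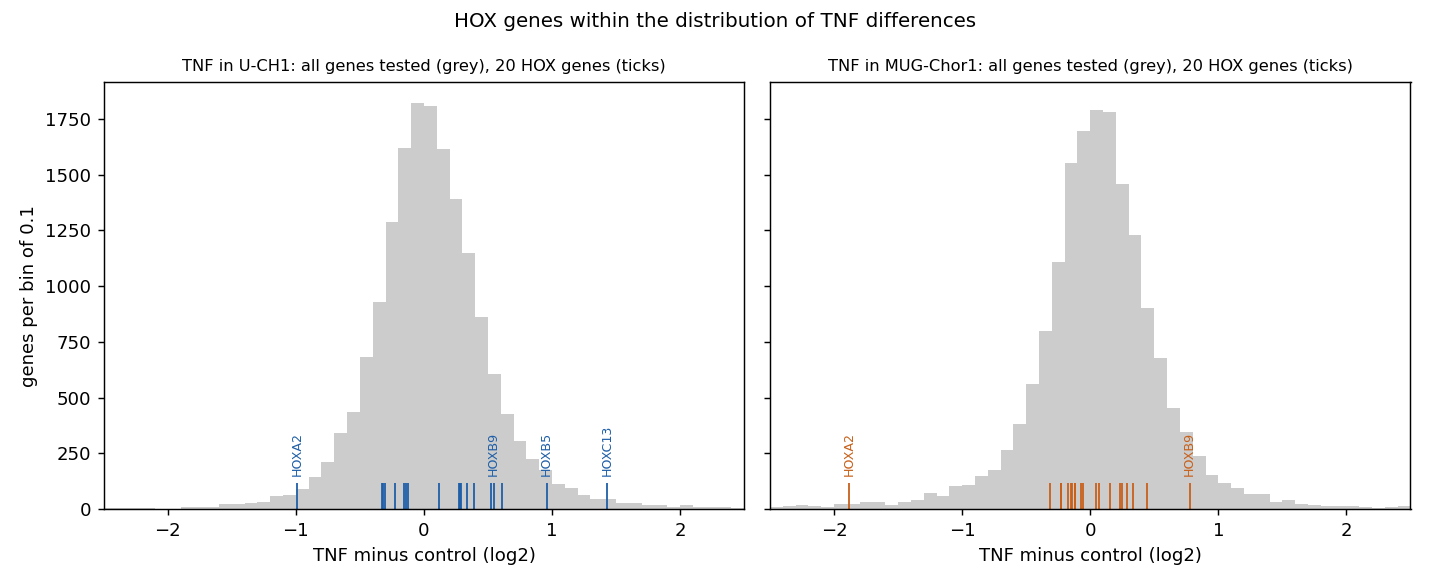
Distribution of the TNF difference from the control mean (log2) over all genes tested (grey bars, genes per bin), in U-CH1 and MUG-Chor1, with ticks for the 20 HOX genes tested, of which HOXB1 and HOXB8 were tested only because of the U-CH1 TNF array. Genes beyond 2.5 log2 either way, 50 in U-CH1 and 114 in MUG-Chor1, lie outside the plot, and HOXA2 lies in the lower tail of MUG-Chor1 at -1.88.

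Genes that work with or around the HOX clusters were read from 6 lists with 69 tested members. Between the control lines 6 were higher in MUG-Chor1 and 4 lower, beside 10.3% and 8.57% of all genes. MEIS2, a DNA-binding partner of HOX proteins, was the one of 6 tested cofactors to differ, at 4.86 ± 0.227 (SD, n = 3) in U-CH1 and 3.95 ± 0.203 in MUG-Chor1 (difference -0.91, limma adjusted p = 0.0111). Without MUG-Chor1 control 2 its adjusted p was 0.0506 (limma).

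Of 20 Polycomb and Trithorax genes, whose products silence or keep open the HOX clusters, 4 were higher in MUG-Chor1 and 1 was lower, beside the same 10.3% and 8.57% of all genes. KDM6B, a demethylase that removes the Polycomb mark, read 4.66 ± 0.365 in U-CH1 and 2.79 ± 0.207 in MUG-Chor1 (difference -1.87, limma adjusted p = 0.000339), where 2 of 3 controls were above the background. KMT2A, the Trithorax methyltransferase that maintains HOX expression, differed by 1.25, from 6.05 ± 0.161 to 7.31 ± 0.105 (limma adjusted p = 0.00111). KDM6A, a demethylase of the same mark as KDM6B, differed by 1.17 (limma adjusted p = 0.00202). The demethylases of the Polycomb mark thus differed in opposite directions between the lines.

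Of 12 genes of axial signalling, GDF11, a ligand that promotes posterior HOX expression, was lower in MUG-Chor1 by 0.90 (difference -0.90, limma adjusted p = 0.0123) and WNT5A, a ligand of trunk elongation, by 0.70 (difference -0.70, limma adjusted p = 0.0260). The call of WNT5A was lost without control 1 or 2 of either line, with limma adjusted p of 0.0552 to 0.0989. Of 14 neighbours of the clusters, CALCOCO1 (0.81, limma adjusted p = 0.0450) and SKAP2 (0.66, limma adjusted p = 0.0464) were higher in MUG-Chor1. The call of CALCOCO1 was lost without control 1 or 2 of either line (limma adjusted p of 0.118 to 0.154), and that of SKAP2 without any one control other than U-CH1 control 2 (0.0738 to 0.145). None of 7 ParaHox and EVX genes passed, and CDX2, the caudal regulator with the smallest p, differed by -0.39 (limma adjusted p = 0.231). None of 10 antisense and intergenic HOX RNAs passed either, and HOXA-AS2 differed by 0.92 (limma adjusted p = 0.0817).

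In the TNF comparisons none of the 69 list members passed. At unadjusted p under 0.05 (limma) there were 1 in U-CH1, 2 in MUG-Chor1, 4 across both lines and 2 in the difference. At that cut 1187 of all 16986 genes were higher and 645 lower in U-CH1, and 1265 and 879 in MUG-Chor1. Across both lines 1677 were higher and 925 lower, and in the difference 580 and 671. PBX4, a HOX cofactor, had the smallest p in U-CH1, at 3.67 ± 0.0851 on the controls and 5.32 with TNF (difference 1.64, limma adjusted p = 0.0647). In MUG-Chor1 its relative PBX3 had the smallest p among the cofactors, a difference of -0.78 (limma adjusted p = 0.301). HOXC13-AS, transcribed from the strand opposite HOXC13, read 4.33 with TNF in U-CH1 beside a control mean of 3.86, and 3.10 in MUG-Chor1 beside 3.83. Its differences were 0.47 (limma adjusted p = 0.693) and -0.74 (0.362).

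Among the other lists the members with the smallest p in U-CH1 were RARG, a retinoic acid receptor (0.83, limma adjusted p = 0.481), SKAP2 (-0.62, 0.481), KDM6A (0.50, 0.572) and PDX1 (-0.36, 0.848). In MUG-Chor1 they were SNX10 (0.65, limma adjusted p = 0.442), RING1 (0.63, 0.577), WNT5A (0.44, 0.587) and CDX1 (-0.25, 0.866). Across both lines they were SKAP2 (-0.54, limma adjusted p = 0.208), PBX4 (0.91, 0.212), WNT5A (0.42, 0.295), HOXA-AS2 (-0.73, 0.322), EZH1 (0.36, 0.403) and GSX2 (-0.22, 0.758). In the difference of the TNF effects they were PBX4 (-1.46, limma adjusted p = 0.439), HOXC13-AS (-1.21, 0.475), RARG (-1.18, 0.699), KMT2A (-0.59, 0.893), SNX10 (0.62, 0.924) and PDX1 (0.46, 1).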

How the data were processed

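For each array the deposited table gives the level of 53617 probe sets. Per the submitters' processing notes the authors used RMA and Transcriptome Analysis Console, without versions. No source names the log base. The deposited values were taken as log2, which is what RMA gives, and their range of 0.0648 to 12.7 fits that scale. RMA makes the arrays' distributions alike, so a shift common to all genes cannot be seen. The array's genome build was not given in the sources used here. Scan batches were not analysed here, and TNF and such a batch cannot be told apart. Scanner detection calls were not used here.

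Symbols came from the platform annotation: 23871 probe sets had 1 symbol, 1842 several and 27904 were not listed. Of these, 22569 matched RefSeq (GRCh38.p14, for names) by Entrez identifier, which updated 90. The brightest probe set on average stood for each of 632 genes with several. Promoter sequences are RefSeq's.

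A gene entered the tests if any array exceeded 2.57, the median deposited value, which kept 16986 genes. Two-sided tests used lmFit and eBayes of limma 3.58.1 (R 4.3.3), and p-values were adjusted over those genes by Benjamini-Hochberg. Fitting the 4 group means, with 4 residual degrees of freedom, gave the control, within-line and difference contrasts, and an additive model (5) gave TNF across both lines. The code was tested on simulated data. The 8 arrays were grouped by their titles.

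The members, lists and tests were chosen with earlier results of these data known. Named are members called in any contrast or above the background in a control line, up to 3 called genes of each list by size, or else the gene with the smallest p. Alternatives covered the filter, probe sets, normalization, variance model, samples in the model and single arrays left out.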

Additional observations from a re-analysis of the deposited data

How the results depend on the processing

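No called value changed direction under any alternative run. Over all 20 tested members, leaving out single arrays turned up to 2 signs between the control lines, 1 for TNF in U-CH1, 4 in MUG-Chor1, 7 across both lines and 3 in the difference, and quantile normalization turned 3 across both lines and 2 in the difference. The count of members above the background fell from 10 in each line to 3 in U-CH1 and 1 in MUG-Chor1 with the 99th percentile of the olfactory receptor genes, and likewise to 3 and 1 with the 75th percentile of all deposited values. Between the control lines 1 member was higher and 3 lower. Requiring 3 arrays above the median gave 2 higher, HOXC9 with HOXA2. An additive model over 8 arrays gave 2 higher and 5 lower, adding HOXC9, HOXB5 and HOXC13. Leaving out single arrays gave 0 to 1 higher and 1 to 3 lower there, 0 to 1 higher for TNF in U-CH1, and 0 to 1 lower for TNF across both lines. The cause was not tested. The replicate numbers share no label that pairs arrays, and deviations of same-numbered controls correlated at -0.06 to 0.16. With the replicate number as a block, 1 member was higher and 3 lower, the same 4, and 3248 genes were called in place of 3209. That block ended the calls of CALCOCO1 (limma adjusted p = 0.0613) and SKAP2 (0.0632). Counts over all genes moved by more than 1.5 times only when arrays were left out. The control lines went from 3209 to 2123 without MUG-Chor1 control 1. TNF across both lines went from 422 to between 199 and 251 without U-CH1 control 1, MUG-Chor1 control 1 or 2, or the MUG-Chor1 TNF array. TNF in MUG-Chor1 went from 489 to 284 without MUG-Chor1 control 1. TNF in U-CH1 went from 216 to between 104 and 123 without U-CH1 control 1 or 2 or MUG-Chor1 control 1, and to 329 without MUG-Chor1 control 3. The difference went from 90 to 152 without MUG-Chor1 control 3 and to between 38 and 48 without each of the other controls. The TNF results rest on 1 array per line. Differences of members near the background may be understated, which was not tested.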
